A study of Mus musculus with 2 samples.

Results

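The let-7 family is described here across exosomes of a mouse colorectal carcinoma line, CT26, as the mix of its paralogs and as the balance of both arms of let-7d. The members were taken by name, though with earlier results of these data known. They comprised 9 mature miRNAs of the 5p arm and let-7d-3p, 10 of the 1915 mature miRNAs listed. The small RNA of exosomes was sequenced for parental CT26 cells and for spheres derived from them, which the study calls sphere-derived cancer stem cells (SDCSCs), with 1 library for each and no replicate. Both cultures came from the Balb/C line CT26. Parental cells were in complete DMEM made with exosome-depleted serum, and spheres were grown for 2 weeks in serum-free DMEM/F12 with 10 ng/ml EGF, 10 ng/ml bFGF and N2 supplements, so medium and cell state cannot be told apart. The comparison asks which miRNAs of the vesicles differ once cells have been expanded as spheres.

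MicroRNAs are cut from a hairpin precursor, and either arm of the hairpin can be loaded into Argonaute, after which the loaded strand finds its targets mainly through the seed, bases 2 to 8. The let-7 family is known as a brake on proliferation and on stem cell programs, with Ras, Hmga2, Myc and Lin28 among its textbook targets. Lin28 in turn blocks the maturation of let-7 precursors. Mammals carry many let-7 genes with nearly the same product, so a reader of sequencing data has to tell them apart by single bases.

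The mature sequences below, from RefSeq (GRCm38.p6), show why the members are a family and how little separates them. Capitals mark the seed.

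mmu-let-7a-5p: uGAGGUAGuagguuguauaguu
mmu-let-7b-5p: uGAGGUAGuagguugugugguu
mmu-let-7c-5p: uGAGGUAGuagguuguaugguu
mmu-let-7d-5p: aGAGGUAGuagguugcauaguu
mmu-let-7e-5p: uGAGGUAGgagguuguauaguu
mmu-let-7f-5p: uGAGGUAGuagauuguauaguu
mmu-let-7g-5p: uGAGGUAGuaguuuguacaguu
mmu-let-7i-5p: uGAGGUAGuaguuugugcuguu
mmu-miR-98-5p: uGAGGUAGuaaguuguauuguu
mmu-let-7d-3p: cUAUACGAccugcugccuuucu

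All 9 members of the 5p arm were 22 bases long and carried the seed GAGGUAG. Positions are counted from 1 at the 5′ end, with the base of let-7a-5p given first. From let-7a-5p, let-7c-5p differed by A19G, let-7e-5p by U9G and let-7f-5p by G12A, each a single base. The members with 2 differences were let-7b-5p (A17G and A19G), let-7d-5p (U1A and U16C), let-7g-5p (G12U and U18C) and miR-98-5p (G11A and A19U). The most distant was let-7i-5p, with 4 (G12U, A17G, U18C and A19U). Because let-7d-5p differs at its first base, before the seed, it keeps the seed of the family. Of the 1623 listed miRNAs with a RefSeq sequence, 11 had this seed, and the other two, miR-1961 and let-7k, had 0 reads in both libraries. The seed of let-7d-3p, UAUACGA, was found in no other of them.

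The 9 members of the 5p arm come from 12 precursors. On the minus strand of chromosome 13, let-7d-5p (chr13:48536078-48536099), let-7f-5p (chr13:48537889-48537910) and let-7a-5p (chr13:48538239-48538260) lie in exons of the lincRNA 6720427I07Rik. A second copy of let-7f-5p (chrX:151912353-151912374) lies beside miR-98-5p (chrX:151913229-151913250) in an intron of Huwe1, which encodes a ubiquitin ligase, on the plus strand. On the plus strand of chromosome 15, let-7c-5p (chr15:85706616-85706637) and let-7b-5p (chr15:85707325-85707346) lie in exons of the noncoding gene Lncppara. The remaining copies of let-7a-5p (chr9:41536732-41536753, placed by matching the mature sequence to its hairpin) and let-7c-5p (chr16:77599672-77599693) are in introns of noncoding genes on the plus strand, where the protein-coding Gm11146 overlaps the latter on the opposite strand. Spaca6 holds let-7e-5p (chr17:17830366-17830387) and Wdr82 holds let-7g-5p (chr9:106178846-106178867), each in an intron and on the plus strand. On the minus strand of chromosome 10, let-7i-5p (chr10:122985698-122985719) is in an exon of the transcribed pseudogene D630033A02Rik.

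The authors deposited RPM values, which scale the reads of each library to a common total, and 1 read was worth 27.31 RPM in the parental library and 217.77 RPM in that of SDCSC exosomes. Dividing by these values gave back whole reads, 32162 and 3964 in all when each miRNA name is counted once. The parental library therefore held 8.11 times as many miRNA reads. Depth below means these miRNA reads, since the values do not give all reads sequenced. Taken as the smallest number this depth can show, 3 reads were 0.00933% and 0.0757% of miRNA reads. Every interval below covers counting error alone, because amplified reads are not independent molecules, and every test compares 2 libraries by their reads, never the conditions. Of 7 miRNAs known from blood cells, 7 had reads in parental exosomes, together 6.32% of miRNA reads, and 1 had a read in SDCSC exosomes, together 0.0252%. Of these, miR-486a-5p and miR-486b-5p had nearly equal parental reads (856 and 853), and with only the first of them counted the parental share was 3.67%. Of 5 miRNAs typical of epithelium, the miR-200 family, 0 had a read in parental and 2 had 1 read each in SDCSC exosomes. These 5 were thus at or near 0 in both libraries. Among 3 intestinal ones, 3 had reads in parental exosomes (55 in sum, 48 of them miR-192-5p) and 0 in SDCSC exosomes. At the parental share only 6.78 such reads would have fallen in the SDCSC library, and 0 of the 3 were called lower by the rule given below. The liver miRNA miR-122-5p had 0 reads in both. The part of blood cell or serum RNA in the results was not tested. Computed also without the blood cell miRNAs were the log2 ratios and call counts of members and the log2 ratio of the family total. Other results were not, such as those of fewer paralogs, other arms and cluster partners.

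In SDCSC exosomes let-7a-5p was higher, let-7f-5p and let-7d-3p were lower, and for the other 7 members no difference was detected. As parental exosomes held more let-7f-5p than let-7a-5p and SDCSC exosomes more let-7a-5p than let-7f-5p, the leading paralog of the family was not the same in the vesicles of both cultures. Of the 10 members, 1 was higher and 2 were lower by at least 1.5-fold with an adjusted p under 0.05 (two-sided Fisher's exact test, with p-values adjusted by Benjamini-Hochberg for the 336 miRNAs seen in either library). Over all 336 miRNAs, 4.76% were higher and 9.23% lower by the same rule, but this background includes miRNAs of very few reads. Pooled over the libraries, 136 of them had 10 reads or more, every member included. With p-values adjusted for these 136 alone, 16 were higher and 36 lower. With 1 and 2 of 10 members the counts are too small to set the family apart from either background. The median log2 ratio of SDCSC to parental shares was 0.10 over the 9 members of the 5p arm and 0.06 over the 116 miRNAs with a read in each library.

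**Figure D1:**
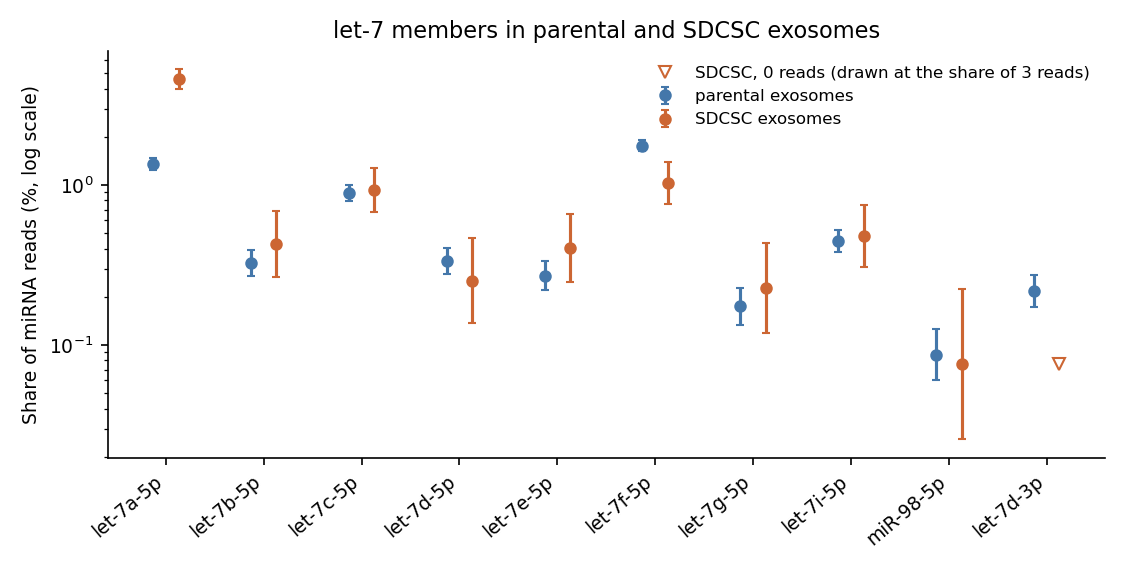
Share of each let-7 member in the miRNA reads of parental (blue) and SDCSC (orange) exosomes, in percent on a log axis, with 95% Wilson intervals. The intervals of the libraries are apart for let-7a-5p (1.35% against 4.59%) and let-7f-5p (1.76% against 1.03%), and let-7d-3p, with 0 SDCSC reads, is drawn as an open triangle at the share of 3 reads, 0.0757%.

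The family's most widely studied member, let-7a-5p, had 435 reads (11880 RPM, 1.35% of miRNA reads, 95% Wilson interval 1.23 to 1.48%) in parental exosomes. In SDCSC exosomes it had 182 reads (39634 RPM, 4.59%, 3.98 to 5.29%), which moved it from rank 18 to rank 7 among all miRNAs. The share was 3.39-fold higher in SDCSC exosomes (log2 ratio 1.76, exact 95% interval 1.51 to 2.02), with an adjusted p of 2.05e-35 in Fisher's exact test. Under all scalings tried, the log2 ratio of let-7a-5p lay between 1.67 and 1.93.

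Of let-7f-5p, which differs from it by G12A, parental exosomes had 566 reads (15458 RPM, 1.76%, 1.62 to 1.91%) and SDCSC exosomes 41 reads (8929 RPM, 1.03%, 0.763 to 1.40%). It was thus lower where let-7a-5p was higher, with a log2 ratio of -0.77 (exact 95% interval -1.26 to -0.31) and an adjusted p of 0.00426 in Fisher's exact test. The fall of let-7f-5p was the less certain of these changes. It missed the threshold when the most abundant miRNA of each library was left out of the totals. There its log2 ratio was -0.60 and its adjusted p 0.0567 in an exact binomial test. Over the alternatives other than sums of entries, the adjusted p ran from 0.000777 to 0.0567, both from exact binomial tests. Sums of entries, which count the reads at both identical copies, gave 3.22e-07 (Fisher's exact test). Both entries list nearly the same number of reads of the same sequence. That lower p-value therefore rests on doubled counts and is no added support.

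The remaining 7 members of the 5p arm were called neither higher nor lower, with log2 ratios from -0.41 to 0.58. Next in abundance in both libraries was let-7c-5p, with 287 reads (0.892%) in parental and 37 reads (0.933%) in SDCSC exosomes, at a log2 ratio of 0.065 (exact 95% interval -0.47 to 0.56). This interval leaves room for at most about a 1.5-fold change in either direction, so the share of let-7c-5p was alike in both libraries to that precision. Its neighbour let-7i-5p had 144 and 19 reads (0.448% and 0.479%) and a log2 ratio of 0.10 (-0.68 to 0.79).

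For the less abundant members the SDCSC library gave 17 reads or fewer, and the intervals widen accordingly. There were 105 and 17 reads of let-7b-5p (0.326% and 0.429%), with a log2 ratio of 0.39 (-0.44 to 1.14). Those of let-7e-5p were 87 and 16 (0.271% and 0.404%), and its log2 ratio of 0.58 (-0.29 to 1.36) was the largest rise that did not pass the test. A similar picture held for let-7g-5p, with 56 and 9 reads (0.174% and 0.227%) and a log2 ratio of 0.38 (-0.82 to 1.41). The 108 and 10 reads of let-7d-5p (0.336% and 0.252%) gave a log2 ratio of -0.41 (-1.51 to 0.52). With 28 and 3 reads (0.0871% and 0.0757%), miR-98-5p was at the limit of depth in SDCSC exosomes and its log2 ratio of -0.20 (-2.56 to 1.49) allows a change of several fold in either direction.

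**Figure D2:**
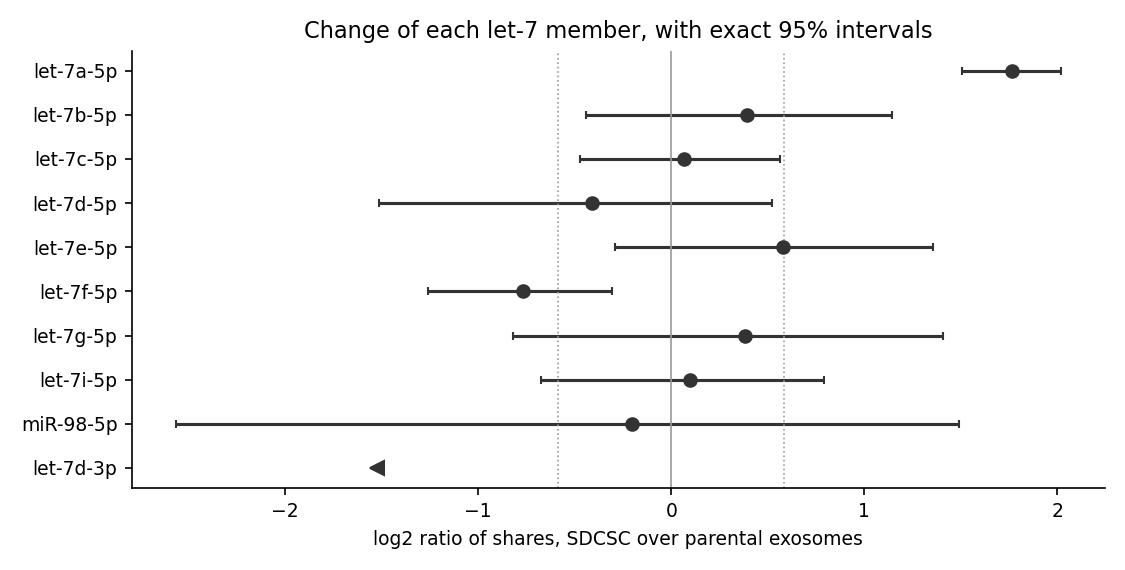
Log2 ratio of the share of each let-7 member in SDCSC over parental exosomes (points) with exact 95% intervals (bars), where dotted lines mark 1.5-fold. The interval of let-7a-5p (1.51 to 2.02) lies above 0 and that of let-7f-5p (-1.26 to -0.31) below it, the others hold 0, and the triangle of let-7d-3p is the log2 ratio that 3 reads would give, -1.52.

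The family as a whole took 1816 reads in parental exosomes, 5.65% of miRNA reads (95% Wilson interval 5.40 to 5.90%), and 334 reads in SDCSC exosomes, 8.43% (7.60 to 9.33%), counting the 9 members of the 5p arm. That is a log2 ratio of 0.58 (exact 95% interval 0.40 to 0.75). Without let-7a-5p the other 8 had 1381 reads (4.29%) and 152 reads (3.83%), a log2 ratio of -0.16 (-0.41 to 0.08). Without let-7f-5p as well, 815 reads (2.53%) and 111 reads (2.80%) remained, with a log2 ratio of 0.14 (-0.16 to 0.43). For the other 7 paralogs together, the interval held 0. As let-7a-5p and let-7f-5p are the paralogs called in these same data, this is no independent test of the rest. Leaving the blood cell miRNAs out of the totals moves log2 ratios by -0.09. The interval of the 8 members without let-7a-5p, -0.41 to 0.08, would then lie below 0.

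The paralog mix was next compared within the family total, a quantity that no scaling between libraries can move. In parental exosomes let-7f-5p led with 31.2% of the family (95% Wilson interval 29.1 to 33.3%), ahead of let-7a-5p with 24.0% (22 to 26%). SDCSC exosomes were dominated by let-7a-5p with 54.5% (49.1 to 59.8%), and let-7f-5p had 12.3% (9.18 to 16.2%). The reads of let-7a-5p per read of let-7f-5p were 0.769 in parental exosomes (exact 95% interval 0.677 to 0.872) and 4.44 in SDCSC exosomes (3.15 to 6.39), and these intervals do not overlap. With let-7a-5p left out of the total, let-7f-5p had the most reads of the remaining 8, with 41.0% in parental and 27% in SDCSC exosomes. In SDCSC exosomes it could not be told from let-7c-5p, with 24.3% (ratio of reads 1.11, exact 95% interval 0.693 to 1.78).

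Of the other 7 paralogs, let-7c-5p and let-7d-5p came nearest to a different family share. The shares of let-7c-5p were 15.8% (14.2 to 17.6%) and 11.1% (8.14 to 14.9%), and those of let-7d-5p 5.95% (4.95 to 7.13%) and 2.99% (1.63 to 5.42%). For both, the Wilson intervals overlapped, while the exact 95% interval of the ratio of family shares, not adjusted for the number of paralogs, stayed just below 0 on the log2 scale, from -1.05 to -0.015 for let-7c-5p and from -2.09 to -0.056 for let-7d-5p. Without let-7a-5p in the total these intervals held 0, from -0.31 to 0.73 and from -1.35 to 0.68. The family share of let-7e-5p was 4.79% in each library, and those of let-7i-5p (7.93% and 5.69%), let-7b-5p (5.78% and 5.09%), let-7g-5p (3.08% and 2.69%) and miR-98-5p (1.54% and 0.898%) had ratios whose exact intervals held 0.

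**Figure D3:**
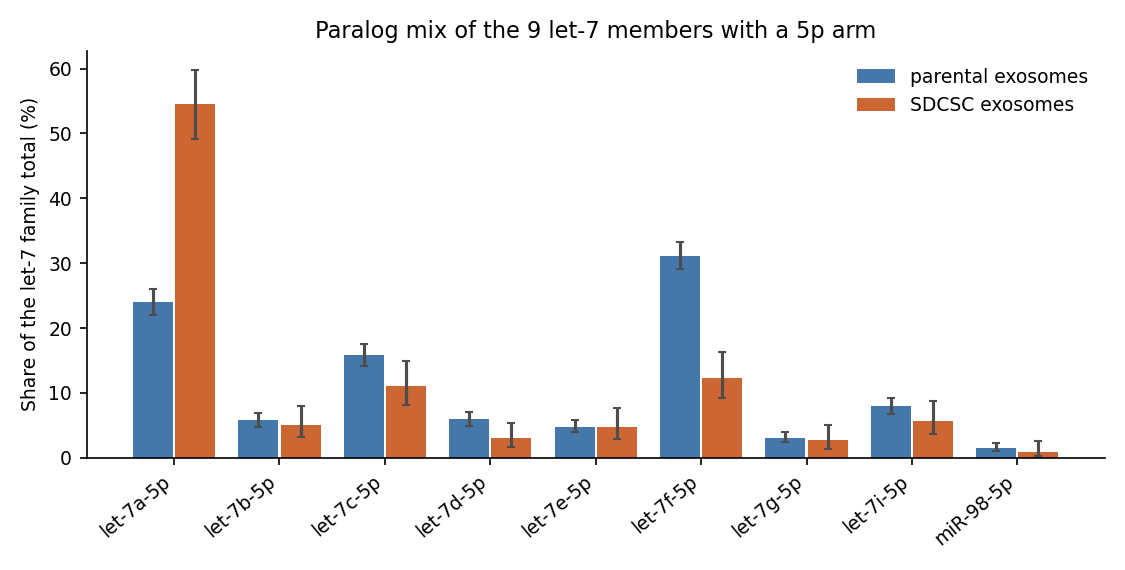
Share of each paralog in the let-7 family total, in percent, for parental (blue, 1816 family reads) and SDCSC (orange, 334 family reads) exosomes, with 95% Wilson intervals. The bar of let-7a-5p goes from 24.0% to 54.5% and that of let-7f-5p from 31.2% to 12.3%, whereas the other 7 bars differ by less than 5 percentage points.

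Below the leading pair the order of the paralogs was alike in both libraries. It ran from let-7f-5p over let-7a-5p, let-7c-5p, let-7i-5p, let-7d-5p, let-7b-5p, let-7e-5p and let-7g-5p to miR-98-5p in parental exosomes. In SDCSC exosomes let-7a-5p and let-7f-5p changed places and let-7d-5p stood seventh, after let-7b-5p and let-7e-5p. In parental exosomes 6 of the 8 neighbours in this order were apart by more than counting error, and let-7d-5p could not be told from let-7b-5p (ratio of reads 1.03, exact 95% interval 0.779 to 1.36) nor let-7b-5p from let-7e-5p (1.21, 0.90 to 1.62). At the lower depth of SDCSC exosomes only 2 of 8 were apart, let-7a-5p from let-7f-5p and let-7c-5p from let-7i-5p (1.95, 1.09 to 3.58).

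Members listed at 2 precursors had nearly the same reads at both. The entries of let-7a-5p held 431 and 435 reads in parental and 176 and 182 in SDCSC exosomes, those of let-7f-5p 545 and 566, and 35 and 41, and those of let-7c-5p 286 and 287, and 35 and 37. As the mature sequences of both copies are identical, these values do not tell which locus a read came from, and the higher entry was used. How the counting treated single mismatches is not given in the sources used here, so a read of one paralog with a sequencing error may have been given to another one.

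The clusters were therefore set side by side at the level of mature miRNAs. In the chromosome 13 cluster, the log2 ratios were 1.76 for let-7a-5p, -0.77 for let-7f-5p and -0.41 for let-7d-5p, so let-7a-5p and let-7f-5p, which both also have a copy elsewhere, moved in opposite directions. The pair of let-7f-5p and miR-98-5p on chromosome X had -0.77 and -0.20, and that of let-7c-5p and let-7b-5p on chromosome 15 had 0.065 and 0.39. Of the 5 miRNAs that share a cluster with let-7e, let-7a-2 or let-7c-1, 1 was higher and 2 were lower by the rule above. On chromosome 17, let-7e-5p (exact 95% interval -0.29 to 1.36) lies beside miR-99b-5p, with 3927 and 120 reads and a log2 ratio of -2.01 (-2.29 to -1.75), and miR-125a-5p, with 301 and 8 reads and -2.21 (-3.44 to -1.22), and its interval overlaps neither. On chromosome 9, miR-100-5p beside let-7a-2 had 229 and 359 reads and a log2 ratio of 3.67. Both miR-99a-5p beside let-7c-1, with 10 and 3 reads, and miR-125b-5p, which has copies at let-7a-2 and let-7c-1, with 360 and 42 reads, passed no test.

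Among the 67 other miRNAs that reached 50 reads in the sum of both libraries, the log2 ratios nearest to the 1.76 of let-7a-5p were those of miR-31-5p (1.68), miR-21a-5p (2.26) and miR-29a-3p (1.21). With only 2 libraries this likeness is a single number for each and describes these libraries.

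The second strand of let-7d was the member that went from clearly counted to not seen. The precursor Mirlet7d (chr13:48536012-48536114, minus strand, GRCm38.p6) is 103 bases long and carries both arms, shown in capitals, separated by 32 bases. Its 3p arm lies at chr13:48536024-48536045.

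Mirlet7d: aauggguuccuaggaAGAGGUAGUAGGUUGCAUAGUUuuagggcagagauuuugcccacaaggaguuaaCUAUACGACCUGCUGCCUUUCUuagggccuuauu

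In parental exosomes let-7d-3p had 70 reads (1912 RPM, 0.218% of miRNA reads, 95% Wilson interval 0.172 to 0.275%) and ranked 57 among all miRNAs. SDCSC exosomes had 0 of 3964 reads, which allows a share of up to 0.0757% by the limit of 3 reads and 0.0968% by the 95% Wilson interval, and 8.63 reads would have been counted there at the parental share. The share was lower in SDCSC exosomes (adjusted p = 0.00589, Fisher's exact test), by at least 2.88-fold if 3 reads are set in place of 0. The exact 95% interval, which also holds the counting error of the parental reads, reaches further, to a log2 ratio of -1.19. Over the alternatives the adjusted p of let-7d-3p ran from 0.00224 to 0.00916. Among miRNAs with at least 50 reads, the nearest log2 ratios, with 0.5 reads added where a library had 0, were those of miR-93-5p (134 and 1 reads), miR-351-5p (83 and 0) and the red cell miRNA miR-451a (88 and 0). For a miRNA with 0 SDCSC reads, such a ratio follows from its parental reads alone.

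The arms were then compared with each other. In parental exosomes let-7d gave 108 reads of the 5p and 70 of the 3p arm, that is 1.54 reads of 5p per read of 3p and a 5p share of 60.7% (exact 95% interval 53.1 to 67.9%). In SDCSC exosomes all 10 reads were of the 5p arm, a share of 100% (69.2 to 100%), where 3.93 reads of the 3p arm would have been counted at the parental balance. The intervals of the 5p share do not overlap. Compared were 27 miRNAs with at least 10 reads over both arms in each library and arm names alike except for 5p and 3p. Paralogs whose 3p arms are named by precursor (let-7a, let-7c and let-7f) were thus left out. Fisher's exact test gave p = 0.0143 for let-7d alone and an adjusted p of 0.129 over the 27. A shift of the let-7d arm balance was therefore not shown at this depth once the 27 pairs were considered. The fall of let-7d-3p relative to all miRNA reads nevertheless passed the test. Only 10 reads stand behind the SDCSC value.

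Within parental exosomes the arms of let-7d were more evenly represented than those of the other pairs. The less abundant arm made up 39.3% of its reads, the highest share among the 27 pairs, where the next was 15.5% for miR-151 and the median 1.62%. In SDCSC exosomes 21 of the 27 pairs, let-7d among them, had 0 reads of the less abundant arm, against 8 of 27 in the deeper parental library. Of the 27 pairs, 7.41% passed an adjusted p of 0.05 in either direction, and these were miR-151 and miR-222. Only 19 of the 27 had a read of each arm in either library. The others could not pass, though they count in that share and in the adjustment. The largest changes of odds in the direction of let-7d were those of miR-151, whose 5p share rose from 15.5% (202 of 1300 reads) to 75.0% (18 of 24 reads; adjusted p = 7.19e-09, Fisher's exact test), miR-30e (88.5% and 100%, adjusted p = 1, Fisher's exact test) and miR-221 (4.76% and 15.0%, adjusted p = 0.182, Fisher's exact test). In the other direction miR-222 fell from 15.4% (16 of 104 reads) to 0.346% (1 of 289 reads, adjusted p = 4.18e-08, Fisher's exact test). By odds alone miR-10b and miR-30d followed, each with a single 3p read in parental exosomes. Their observed 5p shares did not fall, at 99.97% and 100% for miR-10b and 99.8% and 100% for miR-30d. The odds of miR-30e, miR-10b and miR-30d, which had 0 reads of the 3p arm in SDCSC exosomes, rest on the 0.5 reads added to each arm.

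**Figure D4:**
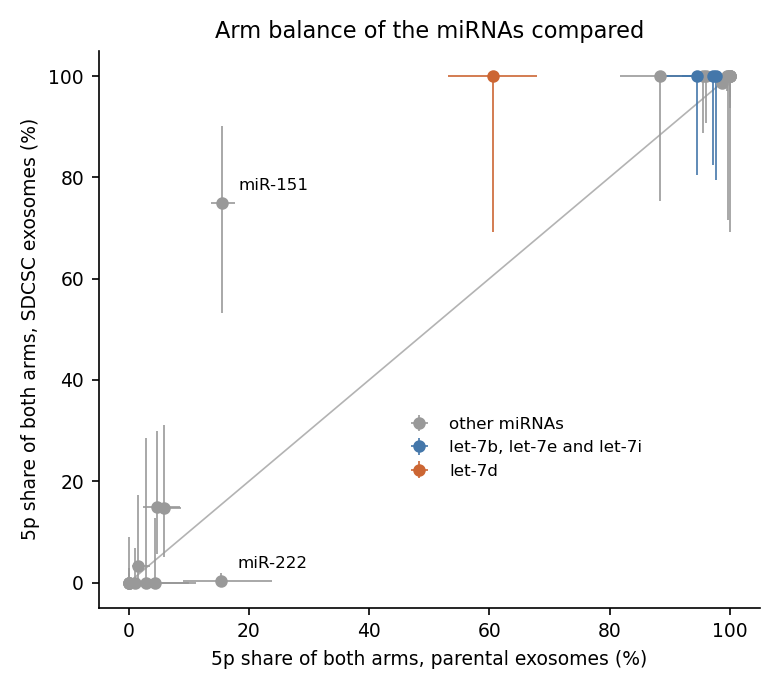
Reads of the 5p arm as a share of both arms, in percent, in parental (horizontal) and SDCSC (vertical) exosomes for the 27 miRNAs compared, with exact 95% intervals and a diagonal of equal shares. Most points sit at the ends of the axes, where one arm holds nearly all reads, and let-7d (orange) lies at 60.7% and 100%.

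Other let-7 precursors gave little of the second arm in either library. Of 11 other arms, named let-7a-1-3p to miR-98-3p, 6 had reads in parental exosomes, at most 6 each and 29 in all, and 0 had a read in SDCSC exosomes. Since let-7a-1-3p and let-7c-2-3p have one sequence and each listed 6 reads, those 29 are 23 when it is counted once. At the parental share only 2.83 such reads would have fallen in the SDCSC library, so a difference in these arms was not detectable at this depth. The 5p share of let-7b went from 94.6% to 100%, that of let-7e from 97.8% to 100% and that of let-7i from 97.3% to 100%, each with 0 SDCSC reads of the 3p arm. The names let-7j and let-7k, of which the first has another seed, GAGGUAU, had 13 and 0 reads in parental and 0 and 0 in SDCSC exosomes.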

How the data were processed

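Reads of small RNA libraries (fragments of 18 to 40 nucleotides) were adapter-clipped by the authors, who discarded reads under 18 nucleotides with Trimmomatic. The authors deposited RPM values for each mature miRNA at each precursor. The submitters' processing notes name mm10. The study's methods name ncPRO-seq for exosomal small RNA, with reads shared among features. The deposited values gave whole reads at each entry, and whether ncPRO-seq made them, and from which miRBase release, is not given in the sources used here. All values above 0 (100%) were whole multiples of the value of 1 read within 0.05 reads, which gave 36615 and 4592 reads over all entries. The highest entry of each miRNA was used.

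With 1 library for each group, a log-scale test of the RPM values could not be run, and Fisher's exact test was applied to the recovered reads of all miRNAs, calling 16 higher and 31 lower of 336. In ratios, 0.5 reads were added to both libraries where one had 0. Ratios have exact conditional and shares Wilson or exact (Clopper-Pearson) 95% intervals. Pairs of arms needed at least 10 reads in each library, and pairs lacking an arm in both were not ranked by odds. Named miRNAs were the 10 members, lists of other let-7 arms, cluster partners and marker miRNAs, the 3 pairs with the largest change of odds in each direction and the 3 nearest log2 ratios. Members and lists were chosen with earlier results of these data known. Scripts were tested on simulated data.

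Sequences came from RefSeq and coordinates from RefSeq and GENCODE, both GRCm38. Versions were Python 3.11.15, scipy 1.17.1, pandas 2.3.3, numpy 2.4.6, matplotlib 3.10.9, R 4.3.3 and edgeR 4.0.16, the last for TMM factors only.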

Additional observations from a re-analysis of the deposited data

How the results depend on the processing

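No paired analysis was possible because the groups hold no replicates, with 1 library for each. The alternatives were other scalings (median of ratios, TMM, totals without the most abundant miRNA, the RPM as deposited), sums of entries, other reads or RPM added, other minimum reads, a 2-fold threshold and other family definitions. Totals without the blood cell miRNAs were added after seeing the data.

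The log2 ratio of the let-7 family total was -0.16 without let-7a-5p and between 0.48 and 0.74 under the other 9 alternatives. The count of members called lower was 1 with the most abundant miRNA left out of the totals and 1 at a 2-fold threshold, in both cases through the loss of let-7f-5p, by construction at 2-fold. With sums of entries, which count members with 2 precursors at both, let-7a-5p held 28.1% of the parental and 61.7% of the SDCSC family total and let-7f-5p 36.1% of the parental one. Without let-7a-5p in the total, let-7f-5p held 41.0% and 27%. Of 80 log2 ratios of single members under an alternative, 79 kept their direction. Of the 60 with a test of their own, sums of entries with doubled counts included, 59 kept their side of the threshold. The exceptions were let-7f-5p (-0.60 with the most abundant miRNA left out) and let-7c-5p, near 0, at -0.029 without the blood cell miRNAs in the totals. Relative to the main totals these scalings moved log2 ratios by -0.09 to 0.17. The let-7d arm result stayed short of the threshold with at least 5 reads for a pair (adjusted p = 0.172, Fisher's exact test, 36 pairs). It had no value with at least 20, since SDCSC exosomes had 10 reads of let-7d. The 3964 SDCSC reads limit every result on members of few reads. They are the depth of the deposited values. The paper also lists small RNAs that differ in SDCSC exosomes. Those values were not used, and whether they rest on the same reads was not tested.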
